A study of Caenorhabditis elegans with 8 samples.

Results

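The 10 genes described here encode the folate transporter family of Caenorhabditis elegans (folt-1, folt-2, folt-3) and enzymes of the methionine cycle (mthf-1, metr-1, sams-1, sams-3, sams-4, sams-5, ahcy-1). They were chosen by name from 47087 loci, with earlier results of these libraries known, among them a higher folt-2 level under light. Their differences between the groups are therefore given as a description, without p-values. Counts of test calls among them are given once, beside the share over all genes, and nothing is read from them. RNA of whole animals was sequenced in 8 poly(A)-selected libraries. Of these, 4 came from wild-type (N2) animals under cycles of 12 h of LED light (8000 lux) and 12 h of darkness (DL), and 4 from wild-type (N2) animals in constant darkness (NL). Larvae of both groups were synchronized and grown on plates with OP50 bacteria at 20 °C for 40 h to the stage the labels call young adult. The labels name 4 batches, and a DL and an NL library share each. Neither the number of light cycles nor the culture behind each library is given in the labels, so p-values reflect variation among these libraries, and that may be technical.

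Folates carry the methyl groups that the methionine cycle uses, and worms take folate up from the bacteria they eat. The reductase encoded by mthf-1 makes 5-methyltetrahydrofolate, and the vitamin B12-dependent methionine synthase encoded by metr-1 passes its methyl group to homocysteine. The sams genes encode synthetases that turn methionine into S-adenosylmethionine, the methyl donor of the cell, and ahcy-1 encodes the hydrolase that returns the spent donor to homocysteine. In C. elegans much of this donor goes into phosphatidylcholine, a membrane lipid.

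The libraries held 18683546 to 20446464 reads in genes, and levels are in FPKM, reads scaled for transcript length and for library total. Markers fixed for stage differed between libraries of a group. The summed level of 29 major sperm protein genes was 941 to 4449 FPKM in DL and 16.3 to 1247 FPKM in NL, where NL 3 held 1247 and the others at most 95.9. The genes msp-10, msp-55, msp-63, msp-65, msp-74 and msp-78 were at 0 in 1 or 2 NL libraries. The sum of 6 yolk protein genes and the adult cuticle gene col-19 was 393 FPKM in DL 2 and 8.07 to 10.5 in the other DL libraries, and 192 FPKM in NL 3 and 0.509 to 3.43 in the other NL libraries. Of these, vit-2, vit-3, vit-4 and vit-5 were each at 0 in 1 or 2 NL libraries. Markers of intestine, hypodermis, muscle, pharynx, neurons and germline were present in all 8 libraries, and their sums differed between libraries (values for NL 1 and NL 2 are given with the pattern of those libraries). The part of stage in the levels below was not tested. Values are also given without NL 3 and DL 2, but these are not adjusted for stage. In that subset the sperm gene sums were 941 to 1235 FPKM in DL and 16.3 to 95.9 FPKM in NL, so stage and light cannot be told apart. In whole animals, fewer cells of a type and less RNA per cell cannot be told apart.

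Of the 10 genes, folt-2 stood apart between the groups, and the other genes overlapped. With log2(FPKM + 1) fitted over 14358 genes, limma called 1 of the 9 members that passed the filter of a mean of 1 FPKM, folt-2, beside 0.703% of all tested genes. Every DL library lay above every NL library for 1 of these 9 members, again folt-2 (beside 4.44% of the 14358 genes), and below for 0 (beside 4.8%), together 1 of 9 beside 9.24%. In the limma fit that blocks on batch the number of called members was 0 of the 9, beside 0.174%. It was also 0 with no filter, with every library rescaled to the same sum, with no intensity trend, and without DL 1, DL 2, DL 3, DL 4, NL 1 or NL 2. Since folt-2 was known to differ when the genes were chosen, these counts support nothing. Log2 differences of DL minus NL were positive for 8 of the 9 members, with a median of 0.32, against 53.5% positive and a median of 0.03 over all tested genes. Of the positive ones, metr-1 (0.05 ± 0.15) and mthf-1 (0.01 ± 0.15) were near 0 and higher in DL in only 1 batch each. The genes folt-1, folt-2, sams-1 and ahcy-1 shared low levels in NL 1 and NL 2. No joint rise of the members is read from this count.

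**Figure D1:**
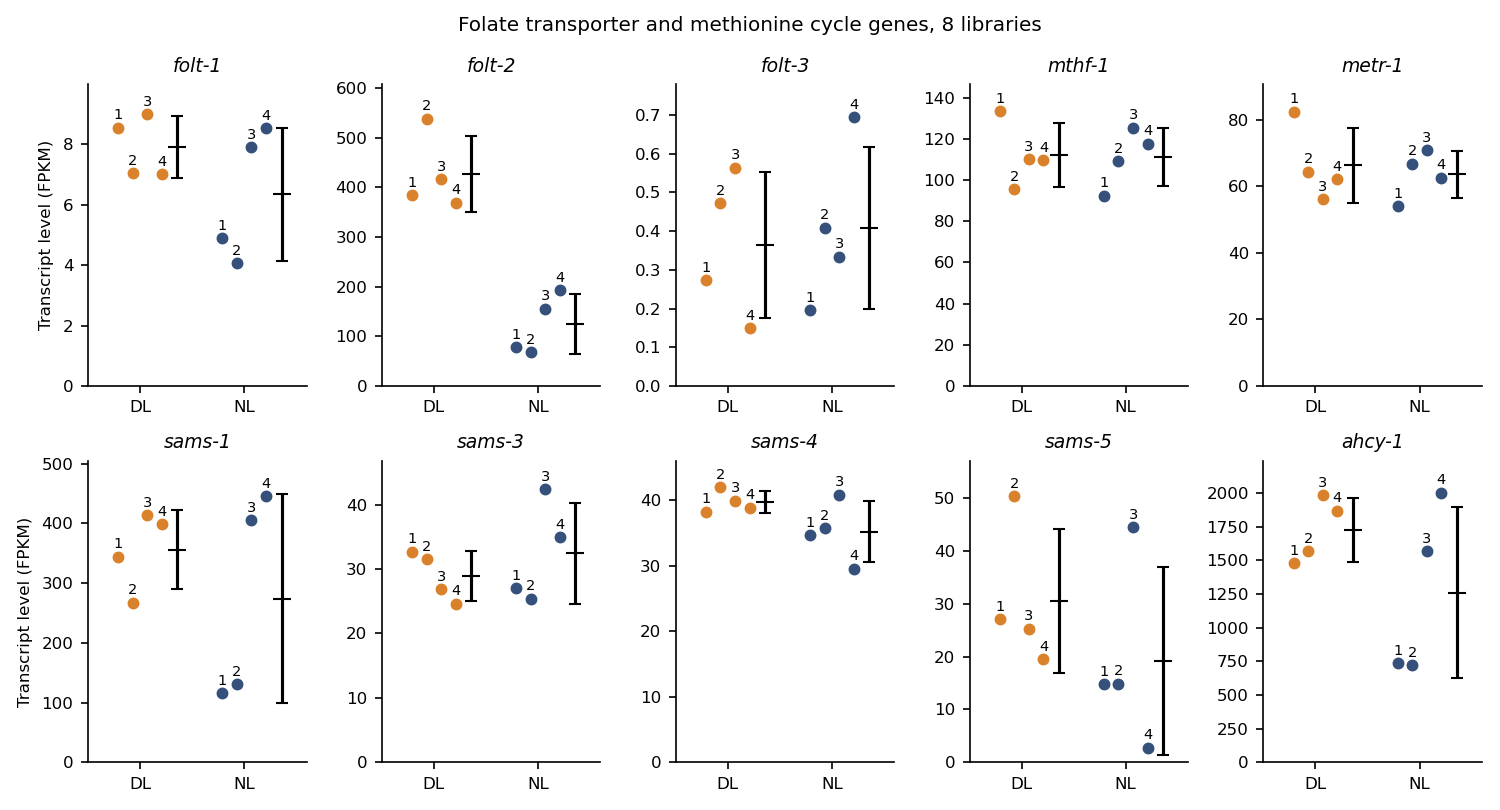
Transcript level in FPKM (vertical axes, each from 0) of the 10 genes in DL (orange, left) and NL (blue, right); points are libraries with their replicate numbers, bars are mean ± SD of 4. Only folt-2 has every DL point above every NL point; in sams-1 and ahcy-1, NL 1 and NL 2 lie far below the other 6 libraries.

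Folate enters cells through the transporters, whose transcripts differed widely in level. The gene folt-2 (WBGene00018138) lies on chromosome V at 2872465 to 2875600, minus strand, in the annotation of WBcel235, and encodes a member of the reduced folate carrier family. Its level was 384, 538, 416 and 368.9 FPKM in DL 1 to DL 4, and 78.7, 68.1, 156 and 193 FPKM in NL 1 to NL 4. The lowest DL library thus lay well above the highest NL library, NL 4. The means were 427 ± 76.9 FPKM in DL and 124 ± 60.4 FPKM in NL (SD, n = 4 each), a ratio of 3.45. On the log2(FPKM + 1) scale, which understates changes of low genes, the difference was 1.90 ± 0.33 (SE of the limma fit).

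Within batches 1 to 4 the folt-2 difference was 2.27, 2.96, 1.41 and 0.93, positive in all 4 and smallest in batches 3 and 4. In those batches NL 3 and NL 4 stood above NL 1 and NL 2. Without NL 3 and DL 2 the difference was 1.93 ± 0.38. With the batch as a block it was 1.90 ± 0.35. The difference stayed between 1.66 and 2.15 in all 18 alternatives of the processing.

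The transporter whose folate uptake has been shown in C. elegans, folt-1 (WBGene00007388, chromosome V at 11141479 to 11143121, plus strand), was expressed at a much lower level. It stood at 8.56, 7.06, 9.0 and 7.01 FPKM in DL, and at 4.90, 4.06, 7.90 and 8.53 FPKM in NL. NL 3 and NL 4 lay inside the DL range and NL 1 and NL 2 below it. The difference was 0.32 ± 0.23, positive in 3 of 4 batches and -0.25 in batch 4. Of its exon bases, 171 also belong to C06H2.7 on the other strand, and the library kit does not mark strand, so reads of that stretch cannot be told apart.

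The third paralog, folt-3 (WBGene00044738, chromosome V at 7603735 to 7609748, minus strand), lay under the expression filter. It stood at 0.273, 0.473, 0.564 and 0.149 FPKM in DL, and at 0.195, 0.409, 0.334 and 0.694 FPKM in NL. These values rest on 4 to 18 reads per library, so no difference could be seen at this depth. By contrast folt-2 held 2226 to 17968 reads and folt-1 held 116 to 266. Per length, folt-2 stood 44.9 to 76.2 times above folt-1 in DL libraries and 16.1 to 22.6 times above it in NL libraries. These ratios did not overlap either, which follows from the folt-2 levels that led to its choice.

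**Figure D2:**
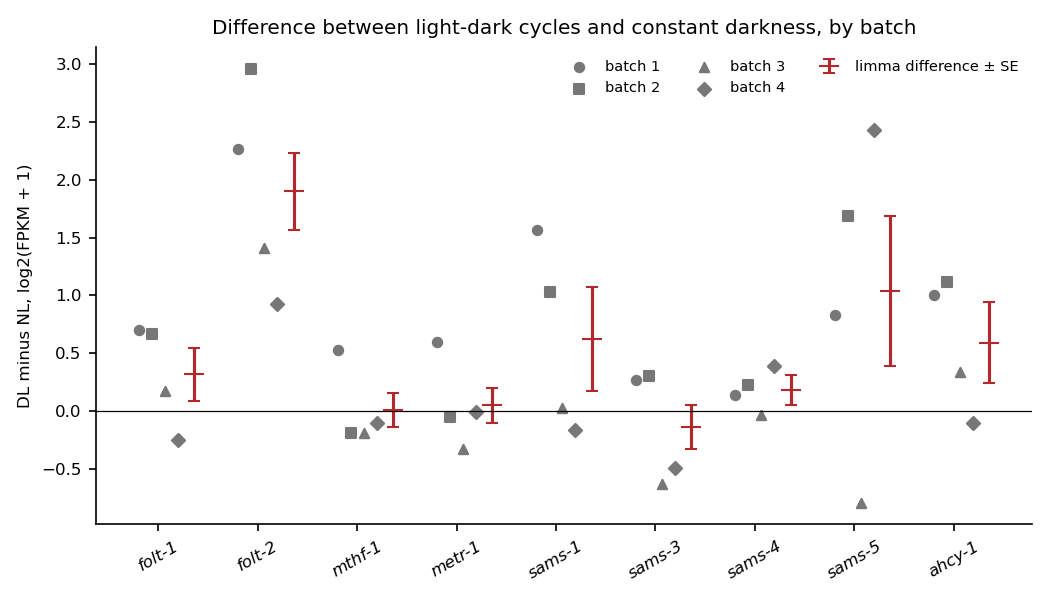
Difference of DL minus NL in log2(FPKM + 1) (vertical axis) for the 9 genes above the filter, within each of the 4 labelled batches (grey symbols) and from the limma fit (red, ± SE). Only folt-2 is positive in all 4 batches; in sams-1 and ahcy-1 the batch 1 and 2 differences are near or above 1 and those of batches 3 and 4 lie between -0.16 and 0.34.

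Transcripts of the enzymes that make methyl groups and hand them to homocysteine varied little on the deposited scale. Over the 8 libraries the range was 1.44-fold for mthf-1 and 1.53-fold for metr-1. The narrowest range of the members was 1.42-fold, for sams-4. That scale is uneven, with summed FPKM from 661483 in DL 1 to 969531 in DL 3. With every library rescaled to the same sum, the SE of the difference rose from 0.15 to 0.21 for mthf-1 and to 0.23 for metr-1. Ranges on that scale were not computed. The reductase gene mthf-1 (WBGene00015512, chromosome II at 7773904 to 7777823, minus strand) stood at 134, 95.7, 110.1 and 109.8 FPKM in DL, and at 92.5, 109.1, 126 and 118 FPKM in NL. The groups covered nearly the same range, and the difference was 0.01 ± 0.15. The methionine synthase gene metr-1 (WBGene00010988, chromosome II at 10926561 to 10931078, plus strand) stood at 82.5, 64.4, 56.2 and 62.1 FPKM in DL, and at 54.1, 66.8, 70.8 and 62.6 FPKM in NL. DL 1 was the highest library for both genes and NL 1 the lowest. The metr-1 difference was 0.05 ± 0.15, and both genes were higher in DL only in batch 1. The ratio of metr-1 to mthf-1 was 0.592 ± 0.0698 in DL and 0.573 ± 0.0339 in NL, within 0.51 to 0.673 in all 8 libraries. Their sign turned in some alternatives: metr-1 ran from -0.06 to 0.13 and mthf-1 from -0.07 to 0.15.

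Of the S-adenosylmethionine synthetase genes, sams-1 was the most abundant in every library. The product of sams-1 (WBGene00008205, chromosome X at 11965962 to 11969893, plus strand) is known to supply phosphatidylcholine synthesis. It stood at 345, 267, 414 and 398 FPKM in DL, and at 116, 131, 405 and 445 FPKM in NL. NL 1 and NL 2 were lower than every other library, whereas NL 3 lay inside the DL range and NL 4 above it. Means were 356 ± 66.1 FPKM in DL and 274 ± 175 FPKM in NL (SD, n = 4 each), and the difference was 0.62 ± 0.45. Within batches it was 1.57 and 1.03 in batches 1 and 2, and 0.03 and -0.16 in batches 3 and 4. Leaving out NL 3 and DL 2 gave 1.02 ± 0.49, and leaving out NL 1 gave 0.29.

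The paralogs sams-3 and sams-4 lie head to head on chromosome IV, with 2287 bases between them. Their sequences are known to be close, so reads from shared stretches may have been split or lost in counting, and both levels are uncertain. The gene sams-3 (WBGene00015538, 5848657 to 5850843, plus strand) stood at 32.7, 31.5, 26.9 and 24.6 FPKM in DL, and at 27.0, 25.4, 42.4 and 34.9 FPKM in NL. NL 3 was the highest library, and the difference, -0.14 ± 0.19, was the only negative one among the 9 members. The gene sams-4 (WBGene00015540, 5844061 to 5846369, minus strand) stood at 38.2, 41.9, 39.9 and 38.8 FPKM in DL, and at 34.6, 35.7, 40.8 and 29.5 FPKM in NL. NL 3 alone lay within the DL range, and the difference was 0.18 ± 0.13. Without NL 3 and DL 2 the sams-4 difference was 0.23 ± 0.14.

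The fourth synthetase gene, sams-5 (WBGene00006416, chromosome IV at 6277433 to 6279522, minus strand), varied most. It stood at 27.1, 50.3, 25.3 and 19.5 FPKM in DL, and at 14.8, 14.9, 44.5 and 2.81 FPKM in NL. DL 2 and NL 3 were the highest and NL 4 the lowest, with a range of 17.9-fold over the 8 libraries. The median range was 1.92-fold for the 10013 genes that averaged 5 FPKM or more. The difference was 1.04 ± 0.65, with -0.79 in batch 3 and 2.43 in batch 4. From high to low sams-5, the libraries ran DL 2, NL 3, DL 1, DL 3, DL 4, NL 2, NL 1 and NL 4. The summed sperm genes put them in the same order except that DL 3 (1235 FPKM) came before DL 1 (1205). The summed level of 13 oocyte and eggshell genes was 109 to 542 FPKM in DL, highest in DL 2, and 53.4 to 195 FPKM in NL, highest in NL 3 and lowest in NL 4, where perm-2 was at 0. The summed level of 8 germline genes was also highest in DL 2 (452.5 FPKM) and lowest in NL 4 (204 FPKM), but its order was not the same. It was 331.5 FPKM in NL 2, above 318 FPKM in NL 3 and 291 to 319.5 FPKM in DL 1, DL 3 and DL 4. The part of germ cells in the sams-5 levels was not tested.

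Added together, the 4 synthetase genes came to 443, 391, 506 and 481 FPKM in DL, and to 192, 207, 533 and 512 FPKM in NL. The sum was lowest in NL 1 and NL 2, while NL 3 and NL 4 exceeded every DL library. The share of sams-1 in it was 77.8, 68.3, 81.8 and 82.8% in DL, and 60.2, 63.2, 76.1 and 86.9% in NL. The share of sams-5 was 4.06 to 12.9% in DL and 0.549 to 8.36% in NL, so in NL 4 nearly no synthetase transcript came from sams-5.

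**Figure D3:**
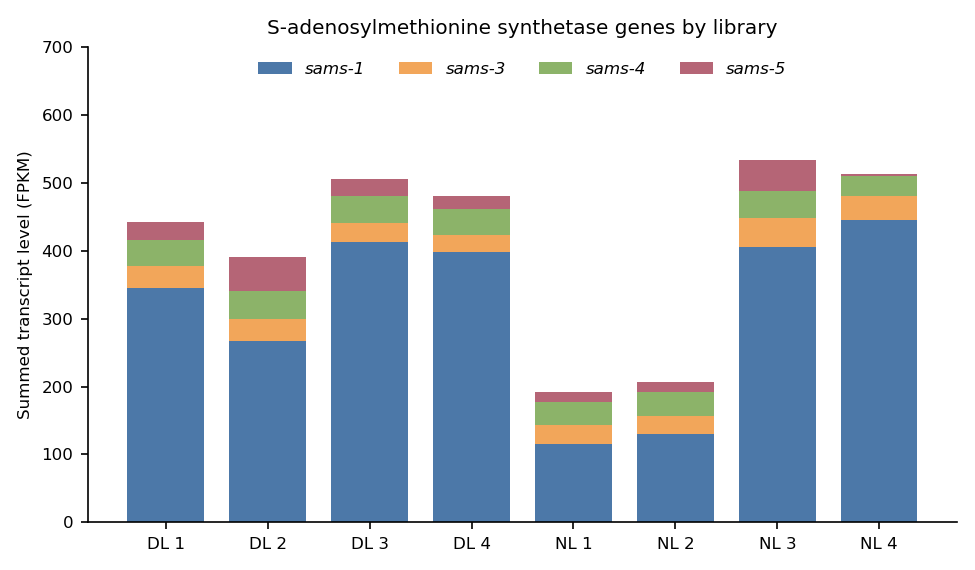
Summed FPKM (vertical axis) of the 4 S-adenosylmethionine synthetase genes, stacked, in each DL and NL library. The sum is 192 and 207 FPKM in NL 1 and NL 2 and 391 or more in the other 6 libraries, mostly through sams-1.

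The hydrolase gene ahcy-1 (WBGene00019322, chromosome I at 6836469 to 6838140, plus strand) was the most abundant of the 10 genes in every library, with 21369 to 58849 reads. It stood at 1480, 1570, 1983 and 1869 FPKM in DL, and at 737, 723, 1568 and 2002 FPKM in NL. As with sams-1, NL 1 and NL 2 were the lowest libraries, NL 3 lay inside the DL range and NL 4 above it. The difference was 0.59 ± 0.35, with 1.0 and 1.12 in batches 1 and 2 and 0.34 and -0.10 in batches 3 and 4. Leaving out NL 4 gave 0.86 and leaving out NL 2 gave 0.37. The ratio of ahcy-1 to sams-1 was 4.91 ± 0.675 in DL and 5.07 ± 1.11 in NL, with a range of 3.87 to 6.37, although both genes varied over 2.77-fold or more.

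The order of levels per length among the 10 genes changed little between libraries. In all 8 libraries ahcy-1 was first, folt-3 last, and metr-1 stood in place 5. The place after ahcy-1 was held by folt-2 in DL 1, DL 2 and DL 3 (in DL 3 by a narrow margin, with folt-2 at 416 and sams-1 at 414 FPKM), and by sams-1 in DL 4 and all 4 NL libraries. In NL 1 and NL 2, mthf-1 also stood above folt-2. The ratio of sams-3 to sams-4 was 0.633 to 0.856 in DL and 0.71 to 1.18 in NL.

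The genes folt-1, folt-2, sams-1 and ahcy-1 shared a pattern in which NL 1 and NL 2 were both lower than each of the other 6 libraries. That pattern was chosen after the values were seen. It held for 4 of 9 members and 26 of 75 other pathway genes, and for 1848 of 14358 tested genes (12.9%). The reverse, NL 1 and NL 2 both highest, held for 0 of 9 members, 10 of 75 pathway genes and 15% of tested genes. NL 1 and NL 2 were also the most alike pair within a group, with a chi-square of recovered reads of 8.57 per gene, against 25.2 to 125 for the other pairs within DL or NL. Markers of hypodermis were lowest in NL 1 and NL 2, and those of pharynx and body wall muscle were highest there. Those of intestine, neurons and germline were neither. The summed level of 4 pharynx genes was 228 and 196 FPKM in NL 1 and NL 2, against 61.1 to 131 in the other 6 libraries. That of 5 body wall muscle genes was 4130 and 4035 FPKM in NL 1 and NL 2, against 2206 to 3291 in the others. That of 5 hypodermis genes was 408 and 391 FPKM in NL 1 and NL 2, lower than the 456 to 752 in the others. Intestine genes summed to 7651 and 7484 FPKM in NL 1 and NL 2, against 4444 to 8058 in the others. Neuron genes summed to 316 and 328 FPKM there, against 257 to 400 in the others. For germline genes the sums were 270 and 331.5 FPKM, against 204 to 452.5 in the others. The part of tissue makeup in the pattern was not tested. The labels place NL 1 and NL 2 in different batches and do not say whether they came from separate cultures.

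Patterns most like those of folt-2 and sams-1 were ranked among 6283 named genes that averaged 5 FPKM or more. The measure was the root mean square difference between centred log2(FPKM + 1) profiles over the 8 libraries. Most like folt-2 were sur-5 (0.28), the glucuronosyltransferase gene ugt-26 (0.37), the beta-tubulin gene tbb-6 (0.38), the short-chain dehydrogenase gene dhs-25 (0.38) and the lysozyme gene lys-2 (0.40), against a median of 1.07. For example, sur-5 stood at 123, 117, 125 and 146 FPKM in DL, and at 23, 22, 66.8 and 67.5 FPKM in NL. The nearest member to folt-2 was ahcy-1, at 0.69. Most like sams-1 were the fatty acid elongase gene elo-2 (0.19), dao-2 (0.22), ahcy-1 itself (0.23), the choline and ethanolamine phosphotransferase gene cept-1 (0.24) and the cystathionine gamma-lyase gene cth-2 (0.25), against a median of 0.77. In elo-2 the levels were 243, 216, 286 and 266 FPKM in DL, and 117, 106, 351 and 312 FPKM in NL.

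Around the members, 78 further genes of the pathway were listed by function, of which 76 were matched and 75 tested. They too were listed with earlier results of these libraries known, and their p-values carry that limit. Transcripts of dao-3 and comt-4 fell in DL, and limma called 0 genes higher, so that 2 of 75 were called beside 0.703% of all tested genes. At an unadjusted limma p under 0.05 there were 17 of 75 genes, a share near the 20.6% over all tested genes. In the limma fit that blocks on batch the number called was 0 of the 75 (15 at an unadjusted p under 0.05), beside 0.174%. Without both NL 3 and DL 2, limma called 6 of 75, a share no higher than the 10.4% over all tested genes. The median difference of the 75 genes was 0.09, against 0.03 over all tested genes.

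In the list of the folate cycle and glycine cleavage, limma called 1 of 14 genes (beside 0.703% of all tested genes), with a median difference of 0.02. This was dao-3 (WBGene00000929, chromosome X at 8084210 to 8086550), which encodes a methylenetetrahydrofolate dehydrogenase, which interconverts the substrate of mthf-1 with other folate forms. It stood at 51.9, 68.2, 54.1 and 51 FPKM in DL, and at 99.0, 98.4, 99.1 and 107 FPKM in NL. All 4 NL libraries lay close together, NL 3 included, and the highest DL library was DL 2. Means were 56.3 ± 8.03 FPKM in DL and 101 ± 3.91 FPKM in NL, a difference of -0.84 ± 0.13 (limma adjusted p = 0.0326), lower in DL in 4 of 4 batches. With the batch as a block the call was lost (limma adjusted p = 0.129). It was also lost without DL 1, DL 3, DL 4, NL 1 or NL 2 (adjusted p = 0.0715 to 0.127), and with every library rescaled to the same sum (adjusted p = 0.0743).

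The serine hydroxymethyltransferase gene mel-32, which loads folate with its carbon unit, stood at 194 ± 34.5 FPKM in DL and 205 ± 20.2 FPKM in NL (difference -0.10 ± 0.16, limma adjusted p = 0.789). The dihydrolipoamide dehydrogenase gene dld-1 stood at 202 ± 49.7 FPKM in DL and 186 ± 44.4 FPKM in NL (limma adjusted p = 0.83).

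Of 12 genes for the use of vitamin B12 and its regulators, limma called 0 (1 at an unadjusted p under 0.05, beside 20.6% of all tested genes), with a median difference of -0.03. The methionine synthase reductase gene mtrr-1, which keeps the product of metr-1 active, stood at 49.7, 41.1, 31.4 and 32.5 FPKM in DL, and at 19, 19.5, 40.6 and 40.6 FPKM in NL. Like sams-1 it was lowest in NL 1 and NL 2, and the difference was 0.43 ± 0.29 (limma adjusted p = 0.455). The propionyl-CoA carboxylase genes belong to the other vitamin B12-dependent route, the breakdown of propionate. The level of pcca-1 was 193, 214, 225 and 222 FPKM in DL, and 313, 342, 192 and 237 FPKM in NL (limma adjusted p = 0.417). That of pccb-1 was 253 ± 27.5 FPKM in DL and 343 ± 91.7 FPKM in NL (limma adjusted p = 0.305). For both, NL 1 and NL 2 were the highest of the 8 libraries.

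Transsulfuration takes homocysteine out of the cycle towards cysteine. Of its 13 genes limma called 0 (3 at an unadjusted p under 0.05, again beside 20.6%), with a median difference of 0.41. The cystathionine beta-synthase gene cbs-1 stood at 31.6 ± 3.77 FPKM in DL and 37.5 ± 4.89 FPKM in NL (-0.24 ± 0.15, limma adjusted p = 0.41). The cystathionine gamma-lyase gene cth-1 stood at 224 ± 35.2 FPKM in DL and 307 ± 96.3 FPKM in NL (-0.42 ± 0.24, limma adjusted p = 0.361). Its paralog cth-2, named above for its likeness to sams-1, stood at 270.0, 228, 213 and 212 FPKM in DL, and at 90.6, 87.6, 264 and 268 FPKM in NL. The cysteine synthase family gene cysl-2 stood at 506 ± 83 FPKM in DL and 434 ± 186 FPKM in NL (limma adjusted p = 0.594).

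Phosphatidylcholine synthesis by the methyltransferases PMT-1 and PMT-2 is a major use of S-adenosylmethionine in worms. Of 12 tested genes of this list limma called 0 (4 at an unadjusted p under 0.05, beside 20.6%), with a median difference of 0.11. For pmt-1 the groups did not overlap: it stood at 320.1, 237, 284 and 321 FPKM in DL, and at 370.2, 411, 340 and 353 FPKM in NL. The pmt-1 difference was -0.35 ± 0.15 (limma adjusted p = 0.234). For pmt-2 the levels were 304, 334, 314 and 313 FPKM in DL, and 139, 135, 279 and 376 FPKM in NL, low in NL 1 and NL 2. The pmt-2 difference was 0.58 ± 0.32 (limma adjusted p = 0.348). The gene sbp-1, whose product is the worm homolog of the lipid regulator SREBP, stood at 16.9 ± 2.73 FPKM in DL and 22.3 ± 4.67 FPKM in NL (-0.37 ± 0.18, limma adjusted p = 0.295).

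Among 24 genes for other methyltransferases, adenosine kinase and polyamine synthesis, limma called 1 (beside 0.703% of all tested genes), with a median difference of 0.11. This was comt-4 (WBGene00021491, chromosome V at 2049217 to 2050185), a catechol-O-methyltransferase family gene. It stood at 1.48, 0.666, 0.335 and 1.05 FPKM in DL, and at 12.4, 9.15, 14.9 and 4.23 FPKM in NL. These levels rest on only 5 to 26 reads per DL library and 66 to 242 reads per NL library. Every DL library lay below every NL library, and the difference was -2.49 ± 0.36 (limma adjusted p = 0.0251), lower in DL in 4 of 4 batches. The call was lost with the batch as a block (limma adjusted p = 0.0915), without any filter (adjusted p = 0.0675), and without DL 1, DL 3, DL 4, NL 1 or NL 2 (adjusted p = 0.0505 to 0.116). Of its exon bases, 90 overlap a non-coding gene of the other strand. The gene mett-10, whose product methylates the sams-3 and sams-4 transcripts in worms, stood at 9.18 ± 0.758 FPKM in DL and 7.71 ± 1.24 FPKM in NL (0.23 ± 0.15, limma adjusted p = 0.437). The adenosine kinase gene adk-1, which clears the other product of the ahcy-1 reaction, stood at 395 ± 71 FPKM in DL and 386 ± 88.5 FPKM in NL (limma adjusted p = 0.93). The arginine methyltransferase gene prmt-1 stood at 299.5 ± 46.3 FPKM in DL and 356 ± 26.1 FPKM in NL (limma adjusted p = 0.39).

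**Figure D4:**
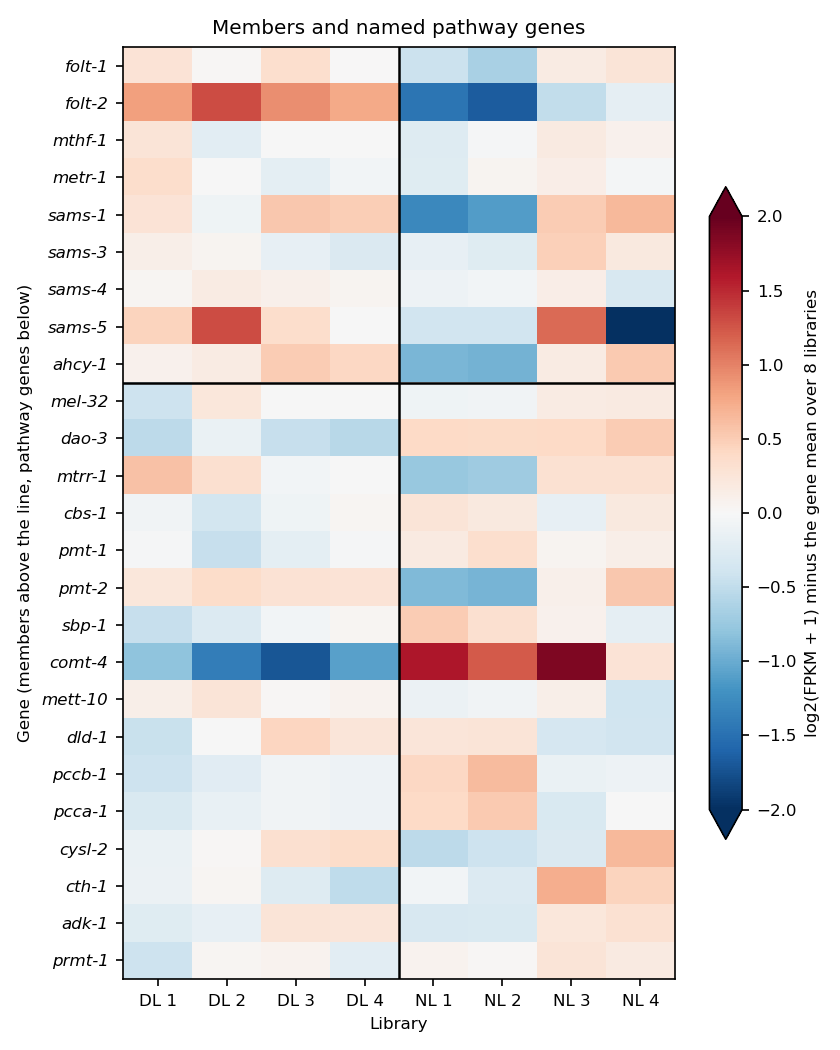
Level of each gene in each library as log2(FPKM + 1) minus its mean over the 8 libraries (colour, clipped at -2 and 2); the 9 members above the filter are over the horizontal line and the 16 named pathway genes under it, with DL left and NL right. The rows of folt-2, sams-1, ahcy-1, mtrr-1 and pmt-2 are each darkest blue in NL 1 and NL 2. That of folt-2 is also red in all DL libraries, where dao-3 and comt-4 are blue.

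**Figure D5:**
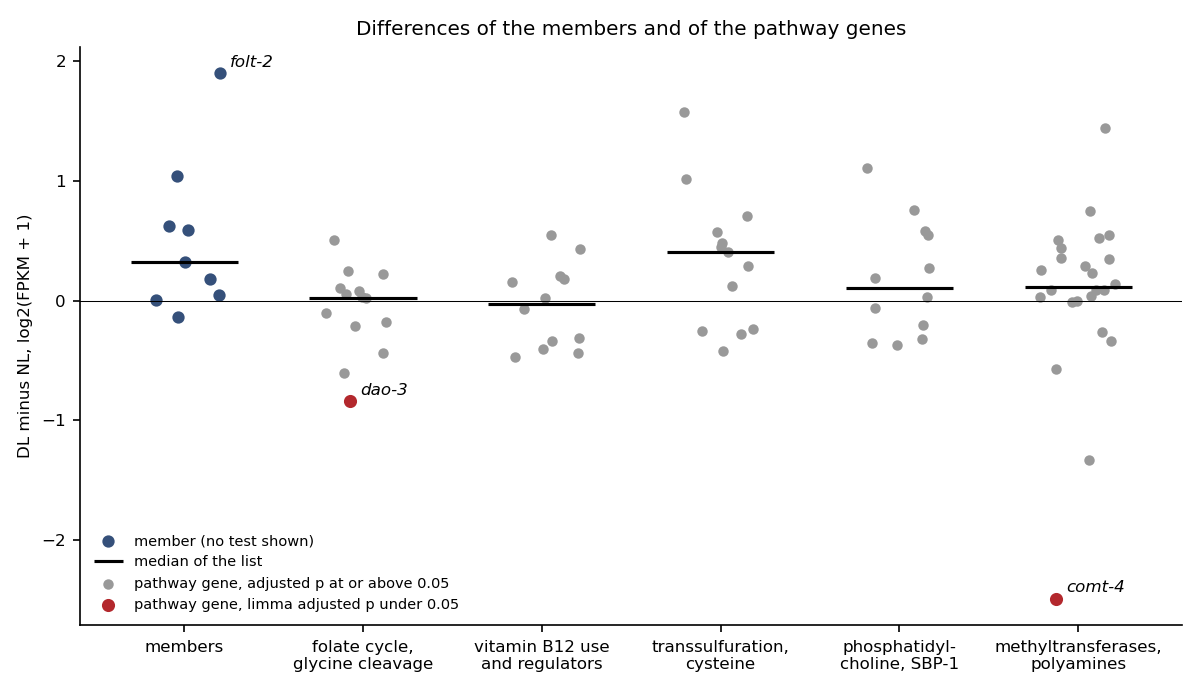
Difference of DL minus NL in log2(FPKM + 1) (vertical axis) for the 9 members and for the 5 lists of pathway genes; each point is a gene and each line a list's median. Pathway genes with limma adjusted p under 0.05 are red, and these are dao-3 and comt-4, both lower in DL.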

How the data were processed

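Gene levels are the FPKM values the authors deposited, 1 column per library and not pooled. HISAT2, HTSeq and WBcel235 are named per the submitters' processing notes. Not given in the sources used here: their versions, the annotation, the strand setting and the library total used for scaling. IDs were named from the annotation of WBcel235 (Ensembl release 115). The kit named in the labels, NEBNext Ultra, does not mark strand. With exon lengths from that annotation, FPKM gave whole reads in all 8 libraries for 99.55% of 22985 genes (tolerance 0.05 read). The total behind FPKM was 0.936 to 1.156 times these reads (DL 3 and DL 1); levels rest on the deposited scale, and the recovered scale was tried as an alternative chosen after seeing the data.

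DL was compared with NL by limma 3.58.1 (R 4.3.3) on log2(FPKM + 1), with an intensity trend, two-sided, over the 14358 genes that averaged 1 FPKM or more, with Benjamini-Hochberg adjustment over them and a threshold of 0.05. The steps were tested on simulated data with 200 changed genes. There limma called 55% of the 2-fold and 89% of the 4-fold changes, and 9 unchanged genes. A gene that was not called may therefore still differ. Tables and figures used Python 3.11.15, pandas 2.3.3 and matplotlib 3.10.9.

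Libraries with the same replicate number are labelled with the same batch, which pairs them. Deviations from the group means correlated by -0.01, -0.19, -0.32 and 0.19 within batches 1 to 4, and by 0.59 between NL 3 and DL 2 of different batches.

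The members, lists and alternatives were chosen with earlier results of these data known. Named were all members and, of the pathway lists, called genes, the 2 with the highest mean of each list, and mtrr-1, mel-32, cbs-1, pmt-1, pmt-2, sbp-1 and mett-10. To these came the 5 genes most like folt-2 and sams-1. The values of cth-2 were added after they were seen. The symbols fpgs-1, gart-1 and msp-71 were not matched.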

Additional observations from a re-analysis of the deposited data

Results flagged for a closer look

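In 3 of 52 groups of 4 libraries examined (10 members and 16 pathway genes, in DL and in NL), 1 library lay far from the other 3 by Dixon's ratio of gap to range; chance gives about 1 in 20. None of the 3 was a member. The dao-3 level was 107 FPKM in NL 4, against 98.4 to 99.1 in the other NL libraries, a small gap in a tight group. The cbs-1 level was 30.3 FPKM in NL 3, against 39.3 to 41.1 in the others. The cysl-2 level was 711 FPKM in NL 4, against 315 to 371 in the others.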

How the results depend on the processing

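Limma called 101 genes (42 higher and 59 lower in DL) and 2 pathway genes. The count over all genes was 33 with no filter, 216 with quantile normalization, 25 with the batch as a block (replicate block) and 1493 without both NL 3 and DL 2, and it ranged from 9 (without NL 1 or NL 2) to 1561 (without NL 3) when a library was left out. The pathway count was 1 with no filter, 1 with equal sums, 0 with the block (limma; 15 at an unadjusted p under 0.05) and 6 without both NL 3 and DL 2, and it ranged from 0 to 6 when a library was left out. Of these libraries, it was 0 without DL 1, DL 3, DL 4, NL 1 or NL 2 (limma; 9 to 17 at an unadjusted p under 0.05) and 6 without NL 3. Scaling moved the split to 40 higher and 31 lower with equal sums, 44 and 106 with median centring, and 67 and 149 with quantile normalization. The paired fit changed the calls of dao-3 and comt-4 and of no other named pathway gene. All 162 differences of the 9 members under the 18 alternatives moved by less than 1 SD between replicates. Of 288 results for the 16 named pathway genes, 274 kept their side of the threshold, and the 14 that did not are lost calls of dao-3 and comt-4. The cause of these shifts was not tested. Depth limits folt-3 (4 to 18 reads per library) most among the members.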

Other observations

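Without both NL 3 and DL 2, the libraries with the highest yolk and adult cuticle levels, limma called 6 of the 75 tested pathway genes, beside 10.4% of all tested genes, so the count does not set the pathway apart. Besides dao-3 (adjusted p = 0.00635) and comt-4 (0.013), these were 3 genes higher and 1 lower in DL, and they are named here after their values were seen. Summed sperm genes in the remaining libraries were at 941 to 1235 FPKM in DL and 16.3 to 95.9 FPKM in NL. Stage and light therefore cannot be told apart in that fit. The cystathionine beta-synthase paralog cbs-2 stood at 3.93, 11.2, 8.15 and 6.34 FPKM in DL, and at 1.73, 1.33, 5.16 and 0.301 FPKM in NL, so that of the NL libraries only NL 3 reached the DL range. Its difference was 1.58 ± 0.46 in all 8 libraries (limma adjusted p = 0.11) and 1.78 ± 0.35 without NL 3 and DL 2 (limma adjusted p = 0.0201). The choline kinase family gene ckb-2 stood at 15.6, 15.8, 32.1 and 33.4 FPKM in DL, and at 7.61, 7.53, 12.9 and 13.2 FPKM in NL, with no overlap in all 8 libraries (limma adjusted p = 0.105; 0.0449 without NL 3 and DL 2).

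Of the catechol-O-methyltransferase family genes, comt-2 was among the 3 with higher DL levels, whereas comt-5 and comt-4 were lower. The comt-2 level was 2.53, 2.81, 4.69 and 4.45 FPKM in DL, and 0.177, 0.281, 0.842 and 1.75 FPKM in NL, a difference of 1.44 ± 0.32 (limma adjusted p = 0.0768; 0.0401 without NL 3 and DL 2). Its NL levels rest on only 3 to 30 reads per library. The comt-5 level was 2.28, 4.33, 2.83 and 1.88 FPKM in DL, and 6.83, 5.75, 9.62 and 12.8 FPKM in NL, a difference of -1.33 ± 0.28 (limma adjusted p = 0.0675; 0.023 without NL 3 and DL 2). For both genes, as for comt-4, the groups did not overlap in the 8 libraries, whereas for comt-1 and comt-3 of the same family they did. Of the 75 tested pathway genes, 10 had groups that did not overlap, beside 9.24% of all tested genes.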
